A study of Homo sapiens with 6 samples.

Results

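The genes of the proteasome, the protease that degrades ubiquitin-tagged proteins, were followed in A549, a cell line derived from a human lung adenocarcinoma. Members were the protein-coding rows of the deposited expression table whose symbol begins with PSM, one of the letters A to G and a digit. The rule found 47 of 30483 genes. It fixed the members by name only, without using their expression. Of these, 46 encode subunits, activators, inhibitors or assembly factors of the proteasome. The remaining gene, PSMC3IP, carries the name because its product binds the subunit PSMC3, but it encodes a cofactor of homologous recombination and is described apart. PSMA8 and PSMB11, subunits of the germ line and of the thymus, are not analysed here.

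Treated cells had received 5 µM anlotinib for 48 h, and the control cells received DMSO, a common drug solvent, for a time the labels do not state. Anlotinib is a drug that blocks the tyrosine kinase receptors for VEGF, FGF and PDGF. Each group held 3 libraries of 1 cell line, and the labels do not say whether cultures were separate. The p-values therefore cover the spread among these samples, which may be technical. All cells were kept in RPMI-1640 with 10% fetal bovine serum. Anlotinib replicate 3 was the lowest library for most members, and its values are given with the results. In these bulk samples fewer cells and less RNA per cell cannot be told apart.

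The core of the proteasome, called 20S, is a barrel of stacked rings. Its outer rings of α subunits (PSMA genes) form the gate, and its inner rings of β subunits (PSMB genes) hold the active sites. The regulatory particle, called 19S, caps the core. Its base carries a ring of ATPases (PSMC genes) that unfold substrates, and its lid (most PSMD genes) removes ubiquitin. In cells exposed to interferon-γ the catalytic subunits PSMB5, PSMB6 and PSMB7 are replaced during assembly by PSMB8, PSMB9 and PSMB10, which gives the immunoproteasome. Its products favour antigen presentation. Transcription of the standard subunits is raised by NFE2L1, a membrane-bound factor that is released when proteasome activity falls short.

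Of the 47 members, all of which were tested, 7 were lower and 1 was higher after anlotinib at a limma adjusted p under 0.05, and 39 did not pass. Members called came to 17% of the set, where 23.2% of all 15734 genes tested were called in either direction. The share that was lower was 14.9% of members, near the background of 12.7%, and the share that was higher was 2.13%, against 10.5% of all genes. The genes that fell were PSMD2, PSMC3 and PSMD11 of the regulatory particle, the inducible catalytic subunit PSMB9, the assembly chaperones PSMG1 and PSMD5, and PSMC3IP. PSME4, an alternative activator, was the gene that rose. Single libraries moved these counts: 17 members were lower without anlotinib replicate 1 and 6 without anlotinib replicate 3. With anlotinib replicate 2, DMSO replicate 1, DMSO replicate 2 or DMSO replicate 3 left out, 3, 3, 3 and 4 were lower, and PSME4 passed only without anlotinib replicate 1.

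Differences lay mostly on the lower side. The log2 fold change was below 0 for 41 of 47 members, with a median of -0.17 (33 members and -0.10 when libraries were scaled by their totals, which put the median of all genes at 0.06). Over all genes tested it was below 0 for 51.7%, with a median of -0.02. Members are strongly expressed, and for the 3373 genes that averaged 1000 normalized counts or more it was below 0 in 63%, with a median of -0.09. The 29 members above that level had a median of -0.14. The log2 fold change was smaller than 0.5 in size for 43 members (91.5%), where the background is 78.5% of all genes tested and 86.7% of those averaging 1000 or more. For 34 members the whole 95% confidence interval lay within that range, as it did for 6555 of the 15734 genes tested. Groups did not overlap for 20 members, 42.6% of them, where the background is 40.2%. In 18 of these, 38.3% of members, the anlotinib libraries were the lower ones, where the background is 21.4%, and in the other 2 they were the higher ones (background 18.8%). The intervals and the overlap were set against all genes tested only, not against genes averaging 1000 or more. Of genes at that level 20.9% were called lower, and of members at that level 10.3%.

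**Figure D1:**
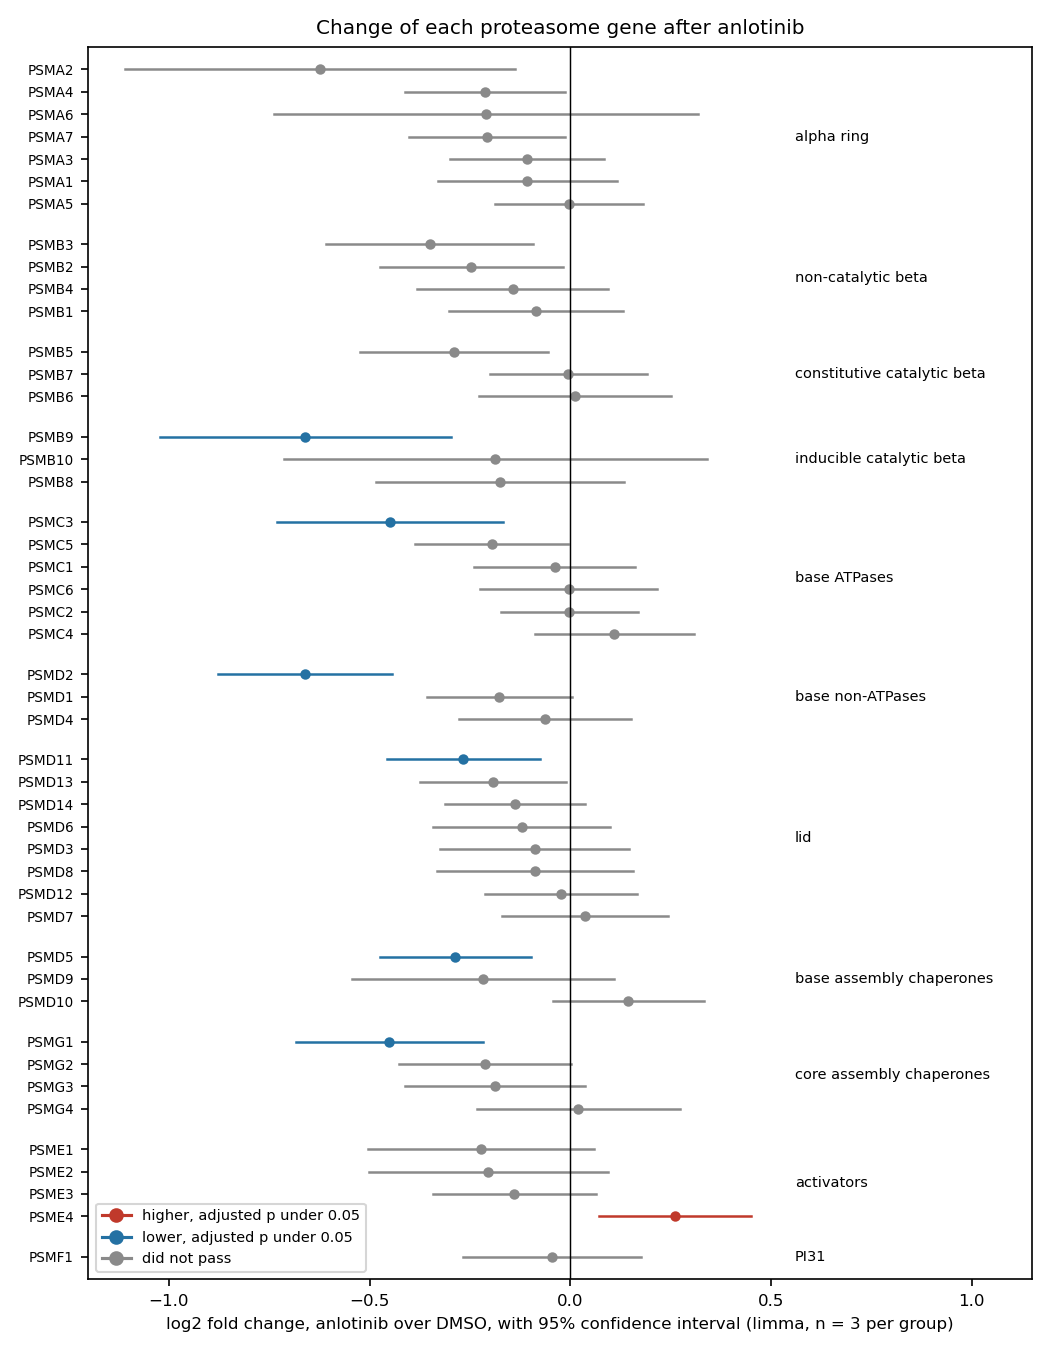
Log2 fold change of each of the 46 proteasome genes, anlotinib over DMSO, with its 95% confidence interval (horizontal axis), arranged by functional class down the page. Coloured points passed at an adjusted p under 0.05. Most points lie between -0.35 and 0.11, and PSMD2 and PSMB9 stand farthest to the left among those that passed.

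The sequence upstream of the RefSeq transcription start is shown for 3 of the genes that fell, PSMD2, PSMB9 and PSMG1. It is also shown for PSMB8, the chromosomal neighbour of PSMB9, which did not pass. The sequences come from RefSeq, build GRCh38.p14. Each is the 250 bases before the RefSeq start, written 5′ to 3′ on the strand of the gene. PSMD2 was read from chr3:184298991-184299240 on the plus strand and PSMB9 from chr6:32853942-32854191 on the plus strand. PSMB8 was read from chr6:32844680-32844929 and PSMG1 from chr21:39183452-39183701, both on the minus strand. The annotated genes used for the counts begin farther upstream for PSMD2 (184298709), PSMB9 (32844136) and, on the minus strand, PSMG1 (39183851). Their windows thus lie inside the annotated genes. The window of PSMB8, whose annotated gene begins at 32844703, does so in part. Capitals mark matches, on either strand, to the core of the antioxidant response element (TGACNNNGC), which NFE2L1 binds, to the CCAAT box, to an ETS core (TTCCGG) or to an interferon response core (GAAA, any 2 bases, then GAAA). No marked matches overlap in these windows.
PSMD2: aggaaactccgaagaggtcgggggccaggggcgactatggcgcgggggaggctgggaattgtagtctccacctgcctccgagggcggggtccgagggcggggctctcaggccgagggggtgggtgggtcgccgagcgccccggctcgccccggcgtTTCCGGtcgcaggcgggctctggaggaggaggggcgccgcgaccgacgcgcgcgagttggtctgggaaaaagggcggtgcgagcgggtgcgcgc
PSMB9: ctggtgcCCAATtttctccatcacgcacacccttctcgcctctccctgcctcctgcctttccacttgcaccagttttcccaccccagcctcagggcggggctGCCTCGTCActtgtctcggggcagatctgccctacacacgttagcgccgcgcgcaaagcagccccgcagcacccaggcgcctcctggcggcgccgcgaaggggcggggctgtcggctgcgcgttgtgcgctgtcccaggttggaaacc
PSMG1: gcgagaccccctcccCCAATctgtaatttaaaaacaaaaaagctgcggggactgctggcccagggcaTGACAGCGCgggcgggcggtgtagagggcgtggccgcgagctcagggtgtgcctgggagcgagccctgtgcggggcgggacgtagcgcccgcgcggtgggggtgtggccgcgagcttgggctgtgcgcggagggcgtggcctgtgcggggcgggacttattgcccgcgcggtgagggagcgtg
PSMB8: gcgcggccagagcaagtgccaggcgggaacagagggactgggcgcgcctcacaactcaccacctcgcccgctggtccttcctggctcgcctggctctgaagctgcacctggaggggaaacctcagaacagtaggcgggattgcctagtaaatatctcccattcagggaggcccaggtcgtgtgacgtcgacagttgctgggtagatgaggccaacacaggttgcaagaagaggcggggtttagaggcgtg
PSMB9 and PSMG1 each hold a CCAAT box and an antioxidant core, PSMD2 an ETS core, and PSMB8 none of these motifs in the bases shown. Promoters were found for 41 members. Motifs were counted in the 250 bases before the RefSeq start. PSMA7, PSMB1, PSMB6, PSMB7, PSMD4 and PSMG3 are named only. The antioxidant core occurred in 11 of the 41 (26.8%), where 11.1% of 27305 promoters of the same length hold it. It occurred in 3 of 7 members that fell, in 7 of 33 that did not pass and in PSME4, which rose. The ETS core occurred in 15 (36.6%, against 14.8% of all promoters), the CCAAT box in 18 (43.9%, against 33%) and the interferon core in 5 (12.2%, against 3.07%). The members with an interferon core were PSMA4, PSMB4, PSMB10, PSME2 and PSMG4, and none of them passed. These matches describe letters in a window and are not shown to be bound.

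None of the 14 subunits of the constitutive core passed, although 13 of them had a log2 fold change below 0. The group's median was -0.18. In the α ring all 7 measured genes pointed down, with log2 fold changes of -0.62 to -0.00, and 3 of them (PSMA2, PSMA4 and PSMA7) did not overlap between groups. PSMA7, the α subunit with the highest level, had 3458, 3234 and 2918 normalized counts after anlotinib, against 3669, 3828 and 3576 with DMSO. Every anlotinib library lay below every DMSO library, yet the gene did not pass (log2 fold change -0.21, limma adjusted p = 0.113). PSMA5 averaged 1194 ± 61.9 normalized counts after anlotinib and 1196 ± 52.6 with DMSO (SD, n = 3 each), a 95% confidence interval of the log2 fold change of -0.19 to 0.18.

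Among the β subunits that carry no active site, PSMB3 came nearest to the threshold. It had 1959, 1796 and 1368 normalized counts after anlotinib, against 2213, 2189 and 2058 with DMSO. The groups did not overlap, and the log2 fold change was -0.35 (SE 0.12, limma adjusted p = 0.0506). The gene passed under 6 of the 16 alternatives, among them DESeq2 (adjusted p = 0.0434). PSMB1, PSMB2 and PSMB4 lay at -0.08, -0.25 and -0.14 on the log2 scale.

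The catalytic subunits of the standard proteasome did not pass either. PSMB5, the chymotrypsin-like site and the main target of bortezomib, had 2046, 1680 and 1531 normalized counts after anlotinib, against 2048, 2287 and 2052 with DMSO. The highest anlotinib library thus reached just below the lowest DMSO library (log2 fold change -0.29, SE 0.11, limma adjusted p = 0.0723). Without anlotinib replicate 1 the gene passed, at -0.41 (adjusted p = 0.0011). PSMB6, the caspase-like site, had 2182, 2087 and 1606 after anlotinib, against 1936, 1957 and 1884 with DMSO. PSMB7, the trypsin-like site, had 2602, 2502 and 2180 after anlotinib, against 2520, 2353 and 2420 with DMSO. For both genes the DMSO libraries lay inside the range of the anlotinib libraries, and the 95% confidence intervals of the log2 fold change were -0.23 to 0.25 for PSMB6 and -0.20 to 0.19 for PSMB7.

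**Figure D2:**
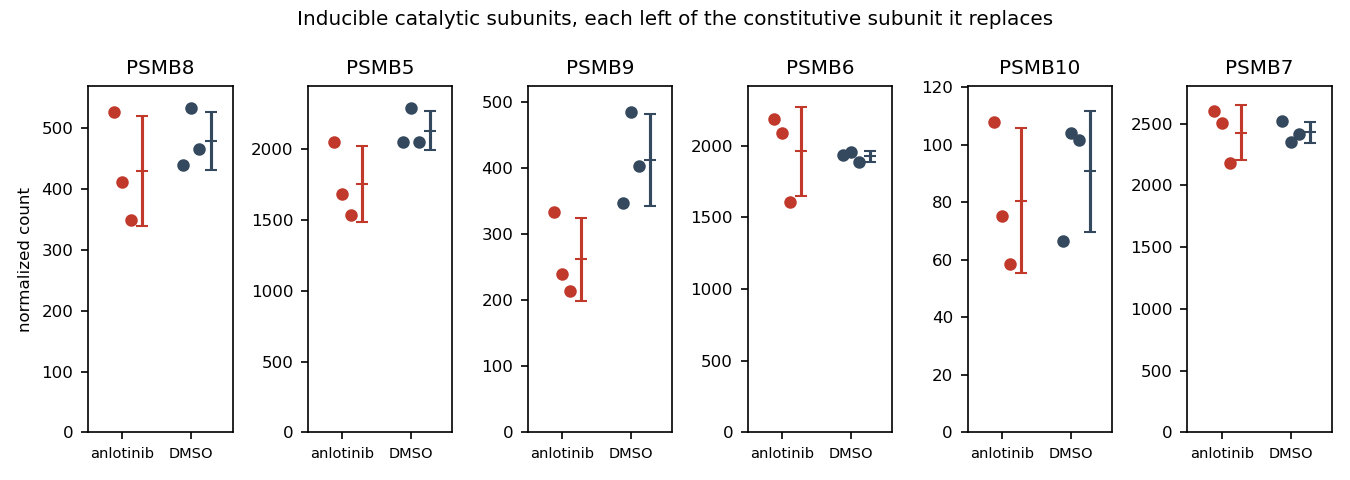
Normalized counts (vertical axis, from 0) of the 6 catalytic subunits in each library, anlotinib left and DMSO right in each panel, with mean and SD beside the points. Each inducible subunit stands left of the constitutive subunit it replaces. In the PSMB9 panel the anlotinib libraries (215 to 334) lie below the DMSO libraries (347 to 486), while those of PSMB8 and PSMB10 overlap.

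Of the inducible subunits, PSMB9 fell and the others did not pass. PSMB9 (chromosome 6, 32844136 to 32859585, GRCh38), which replaces PSMB6, had 334, 240 and 215 normalized counts after anlotinib, against 347, 486 and 404 with DMSO. The groups lay apart by a small gap, since anlotinib replicate 1 nearly reached DMSO replicate 1. The gene was 1.58-fold lower (log2 fold change -0.66, SE 0.17, limma adjusted p = 0.0135). The call was lost without anlotinib replicate 2 (adjusted p = 0.0667) or DMSO replicate 2 (0.0741). On the opposite strand the start of PSMB8 covers 4.52% of its exonic bases, and on the same strand PSMB8-AS1 covers 5.66%.

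PSMB8, which replaces PSMB5, had 527, 412 and 348 normalized counts after anlotinib, against 439, 533 and 465 with DMSO. Its groups overlapped (log2 fold change -0.17, limma adjusted p = 0.409). Without anlotinib replicate 1 it passed, at -0.33 (adjusted p = 0.0306). PSMB10, which replaces PSMB7, had 108, 75.1 and 58.5 after anlotinib, against 66.4, 104 and 102 with DMSO, and its groups overlapped as well (adjusted p = 0.625). PSMB10 shares 34.8% of its exonic bases with another gene on the same strand, so its count is uncertain.

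Inducible and constitutive partners were compared within each library, which removes scaling. Per length, PSMB9 stood at 7.21%, 5.41% and 6.3% of PSMB6 in the anlotinib libraries, against 8.45%, 11.7% and 10.1% in the DMSO libraries. All anlotinib values lay below all DMSO values, and the log2 ratio differed by -0.67 (exact two-sided permutation test, p = 0.1, the smallest that 3 against 3 allows, or 0.3 adjusted over the 3 ratios). PSMB8 stood at 14.3% ± 0.883 of PSMB5 after anlotinib and 13.2% ± 0.552 with DMSO (SD, n = 3 each; exact permutation p = 0.2, adjusted 0.3). PSMB10 stood at 3.16% ± 0.743 of PSMB7 after anlotinib and 3.62% ± 0.94 with DMSO (exact permutation p = 0.7, adjusted 0.7). This exact test cannot go below 0.1 with 3 libraries a group.

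Genes that accompany the immunoproteasome in interferon signalling and antigen processing were read beside PSMB9. Of 14 listed, 3 were lower, 0 higher and 11 did not pass, where 12.7% of all genes were lower and 10.5% higher. The median log2 fold change was -0.02. JAK1, a kinase of the interferon receptors, averaged 2944 ± 151 normalized counts after anlotinib and 4309 ± 149 with DMSO (limma adjusted p = 0.00052). ERAP1, which trims peptides in the endoplasmic reticulum, averaged 518 ± 58.4 after anlotinib and 697 ± 53.6 with DMSO (adjusted p = 0.0123), a call lost without anlotinib replicate 2 (0.0719) or DMSO replicate 2 (0.0704). The peptide transporter gene TAP1 overlaps the annotated PSMB9 gene on the opposite strand and stood at 0.10 (limma adjusted p = 0.444). IRF1, a transcription factor of this pathway, stood at 0.02 (adjusted p = 0.894). Of the leukocyte markers, PTPRC and SPI1 had 0 to 4 reads in any library, while CD14 and ITGB2 had 57 to 89 and 50 to 80. The summed level of the list was 137 to 172 normalized counts after anlotinib and 118 to 162 with DMSO.

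In the regulatory particle 3 of 17 genes fell and 0 rose, where the background is 12.7% lower and 10.5% higher, with a median log2 fold change of -0.09. PSMD2, the scaffold of the base on which ubiquitin receptors and shuttle factors dock, changed most. It had 4916, 4899 and 3968 normalized counts after anlotinib, against 7048, 7432 and 7213 with DMSO. The groups were far apart, and the gene was 1.58-fold lower (log2 fold change -0.66, SE 0.10, limma adjusted p = 0.000533). PSMD2 lies on chromosome 3 at 184298709 to 184309054, shares no exonic base with another annotated gene and was called under all 16 alternatives, with log2 fold changes of -0.71 to -0.56. With DMSO it had the highest count of all members, and per length it stood at 843 normalized counts per kb after anlotinib and 1326 with DMSO. The other scaffold of the base, PSMD1, averaged 2932 ± 118 after anlotinib and 3315 ± 172 with DMSO, a difference that did not pass (SD, n = 3 each; adjusted p = 0.147). The ubiquitin receptor PSMD4 averaged 2369 ± 296 after anlotinib and 2462 ± 80.2 with DMSO and did not pass either (adjusted p = 0.691).

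Among the 6 ATPases of the base, PSMC3 fell. It had 1758, 1492 and 1136 normalized counts after anlotinib, against 2006, 1960 and 1928 with DMSO. The DMSO libraries lay close together and the anlotinib libraries were spread out below them (1.36-fold lower, log2 fold change -0.45, SE 0.13, limma adjusted p = 0.0262). The call was lost without anlotinib replicate 2 or without any one of the DMSO libraries (adjusted p = 0.0733 to 0.0981). PSMC2 averaged 1635 ± 23.3 after anlotinib and 1638 ± 40.4 with DMSO, with a 95% confidence interval of the log2 fold change of -0.17 to 0.17. PSMC4 pointed up, at 0.11 (adjusted p = 0.422), and PSMC1, PSMC5 and PSMC6 lay at -0.04, -0.20 and -0.00.

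In the lid 1 of 8 genes fell. PSMD11, a clamp between the lid and the core, had 2723, 2651 and 2344 normalized counts after anlotinib, against 3004, 3220 and 3043 with DMSO. Groups did not overlap, but the change was small, at 1.2-fold lower (log2 fold change -0.27, limma adjusted p = 0.0449), and the call was lost under 10 of the 16 alternatives. PSMD14, the deubiquitinase of the lid, had 1588, 1566 and 1489 after anlotinib, against 1671, 1761 and 1672 with DMSO. It did not pass (-0.14, adjusted p = 0.247). The log2 fold changes of the other lid genes ran from -0.19 for PSMD13 to 0.04 for PSMD7, and for all 8 lid genes the 95% confidence interval lay within 0.5 of 0.

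Assembly factors moved unevenly. PSMG1, which with PSMG2 forms a chaperone of the α ring, had 516, 518 and 415 normalized counts after anlotinib, against 678, 658 and 636 with DMSO. The groups were well apart (1.37-fold lower, log2 fold change -0.45, SE 0.11, limma adjusted p = 0.00958), and the call was lost under 1 of 16 alternatives, without DMSO replicate 1 (adjusted p = 0.0501). PSMG2 averaged 450 ± 27.1 after anlotinib and 521 ± 30.2 with DMSO (SD, n = 3 each) and did not pass (adjusted p = 0.142). PSMG3 and PSMG4, which form the other chaperone of the α ring, lay at -0.19 and 0.02 on the log2 scale.

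Of the chaperones of the base, PSMD5 had 772, 749 and 774 normalized counts after anlotinib, against 988, 930 and 883 with DMSO. Its anlotinib libraries lay within a narrow band below the DMSO libraries (1.22-fold lower, log2 fold change -0.29, limma adjusted p = 0.0315), and the call was lost under 7 of the 16 alternatives. PSMD10, also known as gankyrin, had 1036, 976 and 973 after anlotinib, against 875, 962 and 866 with DMSO. Its groups did not overlap, with anlotinib higher, but it did not pass (0.14, adjusted p = 0.257). PSMD9 stood at -0.22 (adjusted p = 0.325).

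Among activators of the core PSME4 rose, by a small amount. PSME4, also called PA200, is a nuclear activator that caps the core in place of the regulatory particle. It had 2051, 2271 and 2316 normalized counts after anlotinib, against 1730, 1930 and 1880 with DMSO. The groups did not overlap (1.2-fold higher, log2 fold change 0.26, SE 0.09, limma adjusted p = 0.0482), and the call was lost under 8 of the 16 alternatives. PSME1 and PSME2, which form the interferon-induced activator PA28, lay at -0.22 and -0.20 (adjusted p = 0.241 and 0.313), and both passed as lower without anlotinib replicate 1. PSME3, the nuclear form of PA28, lay at -0.14. PSMF1, an inhibitor of the core in vitro, had 3641, 3557 and 2842 after anlotinib, against 3300, 3545 and 3460 with DMSO, and its groups overlapped (-0.05, adjusted p = 0.787).

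PSMC3IP fell most of all the genes the naming rule found. It encodes HOP2, which acts with recombinases in homologous recombination, mainly in meiosis. It had 79.7, 44.7 and 32.8 normalized counts after anlotinib, against 161, 185 and 139 with DMSO. Groups were far apart (3.23-fold lower, log2 fold change -1.69, SE 0.27, limma adjusted p = 0.000716), and the gene was called under all 16 alternatives. MLX, on the opposite strand, covers 29.9% of its exonic bases. The sources name no strand setting, so its count is uncertain in that stretch. The same holds for PSMC1, of which NRDE2 covers 75.8% on the opposite strand, PSMD7 (30.7%), PSMB8 (20.6%, by PSMB8-AS1) and PSMC5 (19.5%, by FTSJ3), and for PSMA2, PSMG2, PSMG4 and PSMD1 over 20% to 10.8%.

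**Figure D3:**
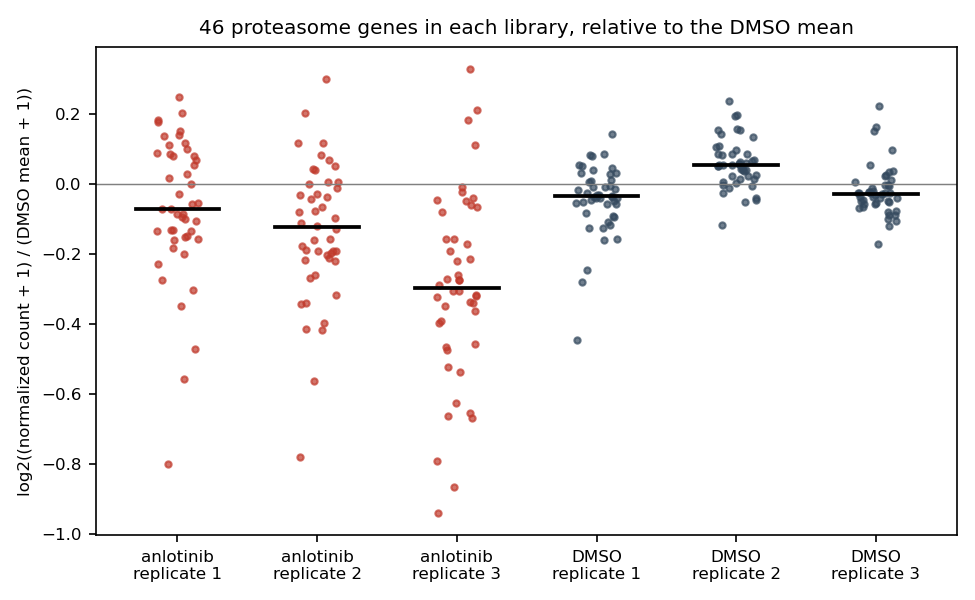
Log2 ratio of each of the 46 proteasome genes to its DMSO mean (vertical axis) in the 3 anlotinib and 3 DMSO libraries. Points are genes and black lines are medians. The medians of the anlotinib libraries are -0.07, -0.12 and -0.30, and those of the DMSO libraries -0.04, 0.05 and -0.03.

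The libraries differed in how low they lay. Relative to the DMSO mean, the 46 proteasome genes had medians of -0.07, -0.12 and -0.30 on the log2 scale in anlotinib replicates 1, 2 and 3. Anlotinib replicate 3 was the lowest of the 6 libraries for 35 of the 47 members, or 74.5%, where it was lowest for 29% of all genes tested and for 51.2% of those with a mean of at least 1000. Its normalized total was also the lowest, at 13341090 normalized counts, where the other libraries held 14629046 to 15519547. Its part in the lower level of the members was not tested. Spread between replicates was wider after anlotinib, with a median coefficient of variation of 9.28% over the members, against 5.31% with DMSO, and likewise over all genes tested (12.4% after anlotinib and 8.12% with DMSO). Without anlotinib replicate 3 the median of the members was -0.11 and 32 of 47 lay below 0.

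The share of all reads that fell on the members does not use the scaling of the deposited values. It amounts to scaling by library totals, so it depends on the reads taken by all other genes. Under that scaling the median log2 fold change was 0.06 for all genes and -0.10 for the members. The members' share was 0.519%, 0.523% and 0.5% in the anlotinib libraries, against 0.545%, 0.557% and 0.535% in the DMSO libraries. All anlotinib shares lay below all DMSO shares, and their 95% Wilson intervals, which cover counting error only, ran up to 0.527% after anlotinib and from 0.532% upward with DMSO. This separation rests in part on PSMD2, which held 4873, 5153 and 4476 reads after anlotinib, against 6581, 7285 and 7025 with DMSO. With its reads left out, anlotinib replicate 2 would lie above DMSO replicate 3. The core genes held 0.154% ± 0.00412 of reads after anlotinib and 0.163% ± 0.00606 with DMSO (SD, n = 3 each). The genes of the regulatory particle held 0.248% ± 0.00571 after anlotinib and 0.269% ± 0.00341 with DMSO. Within it PSMD1, PSMD2 and PSMD4, the base genes outside the ATPase ring, held 0.0684% ± 0.00259 after anlotinib and 0.0856% ± 0.00127 with DMSO. The ATPases of the base held 0.0728% after anlotinib and 0.0725% with DMSO, and the lid genes 0.107% and 0.111%. Genes of inducible subunits held 0.00531% ± 0.000873 after anlotinib and 0.00645% ± 0.000751 with DMSO.

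Per length, the standard core subunits differed widely in level although the particle holds them in equal numbers. Length here is the union of all annotated exons, which was 1179 bases for PSMB3 and 6996 for PSMA4. With DMSO PSMA4 averaged 2991 normalized counts and PSMA7 3691, but 428 and 2109 per kb. The order per length thus depends on the annotated exons, and their part in it was not tested. After anlotinib PSMA7 stood highest of all members, at 1830 ± 155 normalized counts per kb of exonic length, followed by PSMC4 at 1635 ± 152 and PSMB3 at 1448 ± 259 (SD, n = 3), and the spreads of these neighbours overlapped. With DMSO PSMA7 stood highest as well, at 2109 ± 72.7, followed by PSMB3 at 1826 ± 70.9 and PSMC4 at 1511 ± 56.3 (SD, n = 3). PSMB7 and PSMB6 stood at 1359 and 1353 after anlotinib, against 1360 and 1330 with DMSO, and did not differ from each other beyond their spread in either group. The inducible subunits lay lower, with PSMB8, PSMB9 and PSMB10 at 143, 85.5 and 43.5 after anlotinib, against 160, 134 and 48.9 with DMSO.

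**Figure D4:**
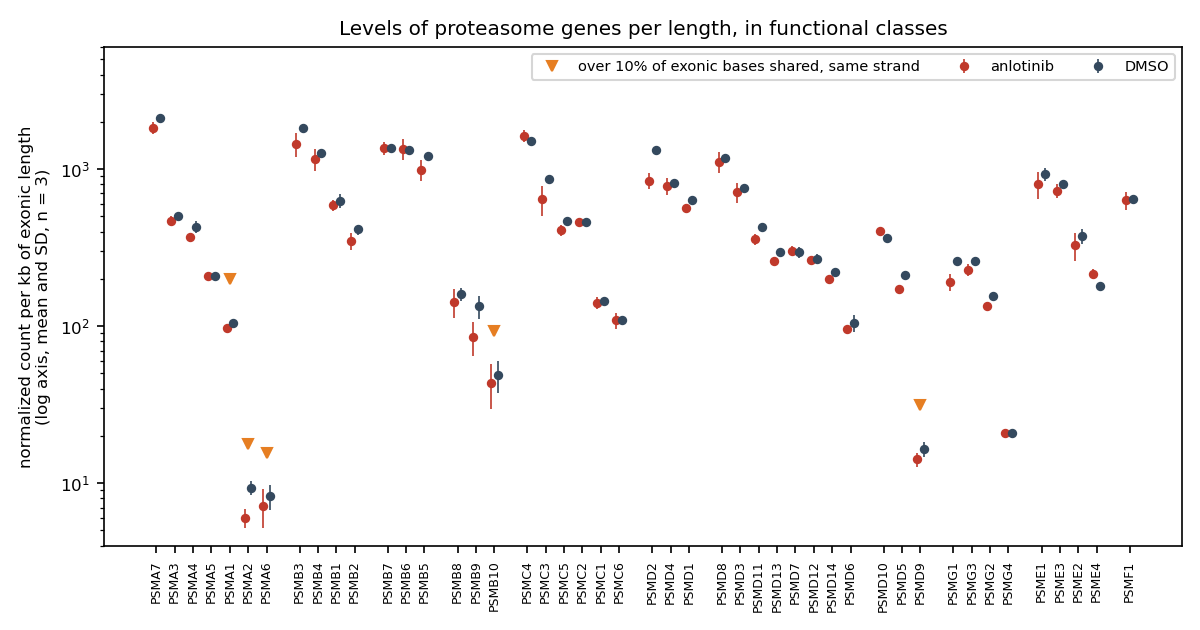
Normalized counts per kb of exonic length (vertical log axis, mean and SD, n = 3) of the 46 proteasome genes, anlotinib left and DMSO right of each pair, in functional classes from the α ring to PSMF1. Triangles mark genes that share over 10% of their exonic bases with another gene on the same strand. PSMA2 and PSMA6 stand near 10, far below the other α subunits.

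PSMA2 and PSMA6 were listed far below the other α subunits. PSMA2 had 28.2, 37.1 and 31 normalized counts after anlotinib, against 48.2, 45.9 and 55.4 with DMSO, and PSMA6 averaged 46.8 ± 13.3 after anlotinib and 53.5 ± 9.37 with DMSO (SD, n = 3 each). Per kb PSMA2 stood at 6.02 after anlotinib and 9.34 with DMSO. PSMA2 did not overlap between groups and had the largest difference in the α ring, without passing (log2 fold change -0.62, limma adjusted p = 0.0632). Both genes overlap annotated genes on the same strand, over 14.6% and 14.1% of their exonic bases, as does PSMA1 over 24.7%, and the annotation holds 3 pseudogenes named after PSMA2 and 4 after PSMA6. The part of overlap and of near-identical copies in these counts was not tested. Besides these, PSMB10 and PSMD9 shared over 10% of their exonic bases on the same strand, and none of these 5 genes was called.

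Genes around the proteasome went in different directions. Of 14 further proteasome-associated factors, 2 rose and 1 fell, near the background of 23.2% called in either direction, with a median log2 fold change of 0.01. ZFAND5, a proteasome-binding protein that stimulates degradation, averaged 4154 ± 238 normalized counts after anlotinib and 2938 ± 77.6 with DMSO (limma adjusted p = 0.00106). AKIRIN2, which brings proteasomes into the nucleus, averaged 978 ± 77.4 after anlotinib and 743 ± 46.3 with DMSO (adjusted p = 0.0103), a call lost without anlotinib replicate 2 (0.0576) or DMSO replicate 2 (0.0597). UCHL5, a deubiquitinase of the regulatory particle, averaged 494 ± 28.8 after anlotinib and 624 ± 27.3 with DMSO (adjusted p = 0.0227). POMP, the maturation factor of the core, lay at -0.03 (adjusted p = 0.869).

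Of 12 genes around NFE2L1, 3 rose and 2 fell, with a median of 0.09, where 23.2% of all genes were called in either direction. NFE2L1 itself, a regulator of proteasome genes, averaged 5245 ± 625 normalized counts after anlotinib and 4745 ± 287 with DMSO and did not pass (limma adjusted p = 0.357). NFE2L2, its relative in the antioxidant response, averaged 1568 ± 80.8 after anlotinib and 1177 ± 5.63 with DMSO (adjusted p = 0.00325). MAFG, a small partner of both, averaged 3686 ± 93.6 after anlotinib and 2612 ± 101 with DMSO (adjusted p = 0.000835), and MAFF rose as well. NFE2L3, a further relative, averaged 745 ± 60 after anlotinib and 1086 ± 7.24 with DMSO (adjusted p = 0.000967), and the partner gene MAFK fell too.

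Of 15 genes for ubiquitin, its activating enzymes and shuttle factors, 1 rose and 0 fell, with a median of -0.02, against the same background. SQSTM1, a receptor of selective autophagy that binds ubiquitin, averaged 33253 ± 3190 normalized counts after anlotinib and 17285 ± 273 with DMSO (limma adjusted p = 9.67e-05). UBA1, the main ubiquitin-activating enzyme, averaged 7297 ± 1090 after anlotinib and 8712 ± 255 with DMSO. Its groups did not overlap, but it did not pass (adjusted p = 0.105). The ubiquitin gene UBB lay at 0.17 on the log2 scale (adjusted p = 0.271).

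For the series as a whole, libraries held 13886120 to 15386107 reads. The epithelial keratin genes KRT8 and KRT18 were abundant, KRT8 averaging 19158 ± 4048 normalized counts after anlotinib and 21101 ± 365 with DMSO, whereas EPCAM was under 10 on average in both groups and was not tested. Of the epithelial list KRT19 and CDH1 rose. Fibroblast and endothelial markers other than COL1A1 and THY1, which both fell, averaged under 10 in both groups. The call of CDH1 was lost without anlotinib replicate 2, DMSO replicate 2 or DMSO replicate 3 (adjusted p = 0.0609 to 0.0873), and that of THY1 without anlotinib replicate 2 or any one DMSO library (0.0692 to 0.11). Mitochondrial genes took 8.74% to 10.9% of reads after anlotinib and 7.81% to 8.76% with DMSO. Their part in the changes of proteasome genes was not tested.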

How the data were processed

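RNA-seq of 6 A549 libraries was read from 1 deposited table of 30483 genes, and 5 further files repeated single libraries with identical values. Values in the deposited table are a signal (normalized counts): within each library all are multiples of 1 common step (100% within 1e-06), as when the authors scale reads by a size factor. The deposited log2 fold change and the deposited p-value and adjusted p-value are the authors' own comparison. Per the labels, total RNA came from Trizol and a SMARTer kit was used for the mRNA libraries. Aligner, counting tool and strand setting were not given in the sources used here. A mouse build, mm9, stands in the submitters' processing notes, but all 30483 genes have the coordinates of GENCODE 29 on GRCh38, which is used here.

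Groups were compared with limma-trend, fitted to log2(normalized count + 1), over 15734 genes, those averaging 10 or more, with treatment as the only term and Benjamini-Hochberg adjustment at 0.05. Fold changes are on that scale, which understates those of low genes. Members' p-values come from the fit over all genes. Reads recovered from the steps served the alternatives with edgeR and DESeq2. Exonic length covers the union of all annotated exons. Depth was 13886120 to 15386107 reads, so 1 read is worth 0.887 to 1.07 normalized counts. Replicates differed by more than sampling noise (chi-square per degree of freedom 3.75 to 20.4). On simulated data with 15734 genes, 92 of 100 genes changed by 1 on the log2 scale were recovered, and 17 of 100 changed by 0.3. Of the unchanged genes 3 were called. The simulation used the same dispersion for every gene in both groups and scaled by library totals. In the real libraries the spread was wider after anlotinib, so these figures need not hold for these data. Members and lists were chosen with earlier results of these data known. Values in every library are given for the catalytic subunits, the members that passed and the member with the largest difference of each class, and for others as examples chosen after their values were seen. The 2 genes with the smallest p of each list are named, with further examples chosen likewise, and some genes of these lists are not reported here by name. Alternatives covered the pseudocount, the filter, the scaling, the test, a replicate block and leaving out each library. Tables and figures were made in Python 3.11.15 (matplotlib 3.10.9, scipy 1.17.1, pandas 2.3.3, numpy 2.4.6) and the fits in R 4.3.3 (DESeq2 1.42.0, limma 3.58.1, edgeR 4.0.16).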

Additional observations from a re-analysis of the deposited data

How the results depend on the processing

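The calls of PSMD2 and PSMC3IP held under all 16 alternatives, and the median of the members stayed below that of all genes tested by 0.10 to 0.17 on the log2 scale. The number of members that were lower was 5 to 8 under the other settings and 3 to 17 when 1 library was left out, with 17 without anlotinib replicate 1 and 3 without anlotinib replicate 2, DMSO replicate 1 or DMSO replicate 2. The number that were higher was 0 with TMM scaling, without any filter and with a filter at a mean of 1, and 0 to 1 when 1 library was left out. Over all genes 3648 were called, and 1979 to 5473 when 1 library was left out, with 5473 without anlotinib replicate 1, 1979 without anlotinib replicate 2 and 2288, 2259 and 2313 without DMSO replicates 1, 2 and 3. Scaling by library totals moved the median of the members to -0.10 and that of all genes to 0.06, with 2068 genes higher and 1552 lower against 1645 and 2003. Signs that turned belong to genes that did not pass. PSMB6 was at -0.0031 with TMM scaling, PSMB7 at 0.070 with library totals, 0.019 with edgeR and 0.013 with DESeq2, and PSMF1 at 0.029 with library totals. When 1 library was left out, PSMB6 ranged over -0.073 to 0.15, PSMB7 over -0.057 to 0.070, PSMF1 over -0.11 to 0.068, PSMB10 over -0.42 to 0.018, CD14 over -0.049 to 0.26 and ITGB2 over -0.13 to 0.16. The cause of these shifts was not tested. With a block for replicate number 7 members were lower and 1 higher, and 3552 genes were called. PSMD11 was lost (adjusted p = 0.0574) and PSMB3 passed (0.0276). Same-numbered libraries did not deviate together (correlations of -0.04, 0.03 and -0.0029). The labels do not say whether the numbers pair them. The setting without PSMC3IP (6 lower, 1 higher) was chosen after seeing the data, as was that without the 5 members overlapping another gene, which changes no count because none of these was called.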

Other observations

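The authors' deposited table lists 8 members as lower and 1 as higher at an adjusted p under 0.05, namely the genes called here and PSMB3. A further 17 rows with proteasome symbols were not protein-coding, among them pseudogenes of PSMA6, PSMC1 and PSMD10 and the antisense genes PSMA3-AS1 and PSMG3-AS1. Pseudogene rows of PSMC1 held 347 reads over the 6 libraries, beside 5304 in PSMC1 itself, and those of PSMA6 held 80, beside 305 in PSMA6.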
